A study of Mus musculus with 8 samples.

Results

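*Ecel1*, *Pthlh*, *Disc1* and *St6galnac5* are 4 genes of mouse sympathetic ganglia that were chosen on the measured values for E14.5, where their FPKM in *Isl1* hypomorphic ganglia was among the lowest relative to wildtype ganglia once genes below 5 FPKM were set aside. Each of the 4 symbols has 1 row in the table of 13413 genes at E14.5 and 1 row in the table of 13506 genes at E11.5. FPKM counts fragments per kilobase of transcript, relative to all fragments of a library, and so is a level scaled to transcript length and library size. Because the E14.5 values chose these genes, they are given for that stage as a description, and no test was made on them.

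RNA-seq was performed on sympathetic ganglia dissected from mouse embryos, with 8 libraries in 4 groups of 2, each from pooled ganglia of about 10 embryos. At E11.5 the control embryos were *Wnt1-Cre;Isl1+/+* and the *Isl1* CKO embryos were *Wnt1-Cre;Isl1 f/f*. Both carried *Wnt1-Cre*, which acts in the neural crest and its derivatives, and a *Rosa26-tdTomato* reporter by whose fluorescence the ganglia were dissected. At E14.5 the embryos were wildtype (*Isl1+/+*) or *Isl1* hypomorphic (*Isl1 f-neo/f-neo*), a genotype with reduced *Isl1*, and the ganglia were dissected without a reporter. The authors' table merges the 2 libraries of a genotype into 1 value for each gene, so that the spread between libraries and the depth are unknown and the differences below have no replicate check. The p-values that the table also holds are the authors' own and were not used.

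The sympathetic chain arises from neural crest cells that gather beside the dorsal aorta and become noradrenergic neurons, and ISL1 is a LIM-homeodomain transcription factor of these neurons. The 4 genes belong to unrelated protein families. *Ecel1* encodes a membrane protein of the neprilysin family of metallopeptidases, also called damage-induced neuronal endopeptidase because its mRNA is induced in neurons after nerve injury, and it is needed for motor axons to branch within muscle. *Pthlh* encodes parathyroid hormone-related protein, a secreted ligand of the receptor PTH1R that is best known for holding back chondrocyte maturation in growing bone. *Disc1* encodes a scaffold protein at the centrosome and along microtubules that binds proteins of neuronal migration and neurite outgrowth, such as NDEL1 and LIS1. *St6galnac5* encodes a Golgi sialyltransferase that adds sialic acid to gangliosides, the sialic acid-bearing glycolipids abundant in neuronal membranes.

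In the mm9 annotation, *Ecel1* (ENSMUSG00000026247.7) lies on the minus strand of chromosome 1 from 89044230 to 89053096, and its longest coding transcript has 18 exons and 3033 bases. *Pthlh* lies on the minus strand of chromosome 6 from 147200623 to 147212689, with 4 exons and 1603 bases. *Disc1* lies on the plus strand of chromosome 8 from 127578095 to 127785758, with 14 exons and 2860 bases. *St6galnac5* lies on the minus strand of chromosome 3 from 152480045 to 152645210, with 5 exons and 5667 bases. *Disc1* and *St6galnac5* span 208 and 165 kb and *Ecel1* and *Pthlh* only 8.87 and 12.1 kb, against a median of 24.6 kb over 11966 matched genes of the E14.5 table, so the set holds both long and compact genes. The span of *St6galnac5* is overlapped over 163328 bases by *Pigk*, a gene of glycolipid anchor assembly on the opposite strand. Of the 6002 exonic bases of *St6galnac5*, 108 (1.80%) also lie in a *Pigk* exon. Whether reads were counted by strand is not given in the sources used here, so reads over those bases cannot be assigned to either gene.

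The promoters are shown because these genes shared the direction by which they were chosen, and they allow their sequence to be read side by side. RefSeq (GRCm38.p6) gave a promoter for 3 of the 4 genes, and *St6galnac5* was not matched. Each run is the 250 bases before the annotated start, read 5′ to 3′ on the strand of the gene. They cover chr1:87156357-87156606 for *Ecel1* (minus strand), chr6:147264014-147264263 for *Pthlh* (minus strand) and chr8:125053945-125054194 for *Disc1* (plus strand). Capitals mark CANNTG, the E-box letters read by basic helix-loop-helix factors such as HAND2.
Ecel1: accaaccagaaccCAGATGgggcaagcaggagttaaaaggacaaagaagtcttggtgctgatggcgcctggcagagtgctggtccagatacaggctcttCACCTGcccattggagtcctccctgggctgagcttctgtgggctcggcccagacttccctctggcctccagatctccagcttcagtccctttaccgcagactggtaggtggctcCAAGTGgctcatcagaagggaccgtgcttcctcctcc
Pthlh: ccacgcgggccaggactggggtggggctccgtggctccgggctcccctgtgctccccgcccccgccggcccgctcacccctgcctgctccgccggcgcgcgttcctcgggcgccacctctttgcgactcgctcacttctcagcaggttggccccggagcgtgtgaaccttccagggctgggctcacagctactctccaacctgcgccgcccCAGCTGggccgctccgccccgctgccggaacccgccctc
Disc1: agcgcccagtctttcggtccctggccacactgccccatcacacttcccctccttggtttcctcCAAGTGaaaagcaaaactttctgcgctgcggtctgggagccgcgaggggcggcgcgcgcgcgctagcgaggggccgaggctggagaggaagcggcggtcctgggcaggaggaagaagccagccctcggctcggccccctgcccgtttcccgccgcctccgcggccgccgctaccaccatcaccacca

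Letters of 3 motifs were searched on both strands: TAAT, the core read by many homeodomain proteins, GATA, the core read by GATA factors, and CANNTG. The matches found do not share bases with each other. The *Ecel1* promoter held CANNTG 3 times, starting 237, 151 and 37 bases before the start, and 3.84% of 32851 promoters of the same length held more. The *Pthlh* promoter held it 1 time, at 39 bases, and the *Disc1* promoter 1 time, at 187 bases, and 66.2% of all promoters held at least 1. GATA occurred in the *Ecel1* promoter alone, 164 bases before the start, against 53.6% of all promoters that held it. TAAT was in 0 of the 3 windows and in 54.9% of all promoters, which says only that these letters are not in these windows. The promoters also differed in base composition, with GC contents of 58.4% for *Ecel1*, 75.2% for *Pthlh* and 69.2% for *Disc1* against a median of 52.4%. *Ecel1* held 4 CpG dinucleotides where *Pthlh* held 26 and *Disc1* 25, against a median of 6.

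*Isl1*, the targeted gene, was listed at 133 FPKM in control against 40.0 FPKM in CKO ganglia at E11.5 (30.2% of control), and at 162 FPKM in wildtype and 83.1 FPKM in hypomorphic ganglia at E14.5 (51.3% of wildtype). The labels therefore matched the level of the targeted gene at both stages. The 14 markers fixed for sympathetic neurons all had a row at both stages. Their summed FPKM was 3294 in control, 2818 in CKO, 5825 in wildtype and 4895 in hypomorphic ganglia. At E11.5, 6 of the 14 were at least 1.5-fold lower in CKO ganglia and 0 higher, beside 12.9% and 18.9% of all genes. Their median log2 ratio was -0.44 against 0.05 over all genes. At E14.5, 2 of the 14 were lower and 0 higher, beside 2.12% and 2.89%, with a median of -0.18 against 0.0028. Erythroid markers took 2.29% of the FPKM sum in control against 11.2% in CKO ganglia, and 1.25% in wildtype and 1.55% in hypomorphic ganglia. The share in CKO ganglia lacks the embryonic globin gene *Hbb-y*, which was at 7552 FPKM in control ganglia and listed at 0 in CKO ganglia, while the other 8 erythroid markers with a row were higher there. In whole ganglia, fewer cells of a type and less RNA per cell cannot be told apart.

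All 4 genes were listed at higher levels in wildtype ganglia at E14.5 than in any of the other 3 groups. *Ecel1* stood at 9.91 FPKM in control against 3.74 FPKM in CKO ganglia at E11.5, and at 182 FPKM in wildtype and 33.0 FPKM in hypomorphic ganglia at E14.5. *Pthlh* stood at 0.376 FPKM in control against 1.14 FPKM in CKO ganglia, and at 6.88 FPKM in wildtype and 1.05 FPKM in hypomorphic ganglia. The wildtype value of *Pthlh* stands alone, and its other 3 values are near or under 1 FPKM. *Disc1* stood at 1.64 FPKM in control against 0.749 FPKM in CKO ganglia, and at 10.5 FPKM in wildtype and 1.70 FPKM in hypomorphic ganglia. *St6galnac5* stood at 2.21 FPKM in control against 3.21 FPKM in CKO ganglia, and at 9.39 FPKM in wildtype and 1.86 FPKM in hypomorphic ganglia. For *St6galnac5* the hypomorphic value is the lowest of the 4, whereas for *Ecel1* and *Disc1* the CKO value is lowest and for *Pthlh* the control value at E11.5.

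**Figure D1:**
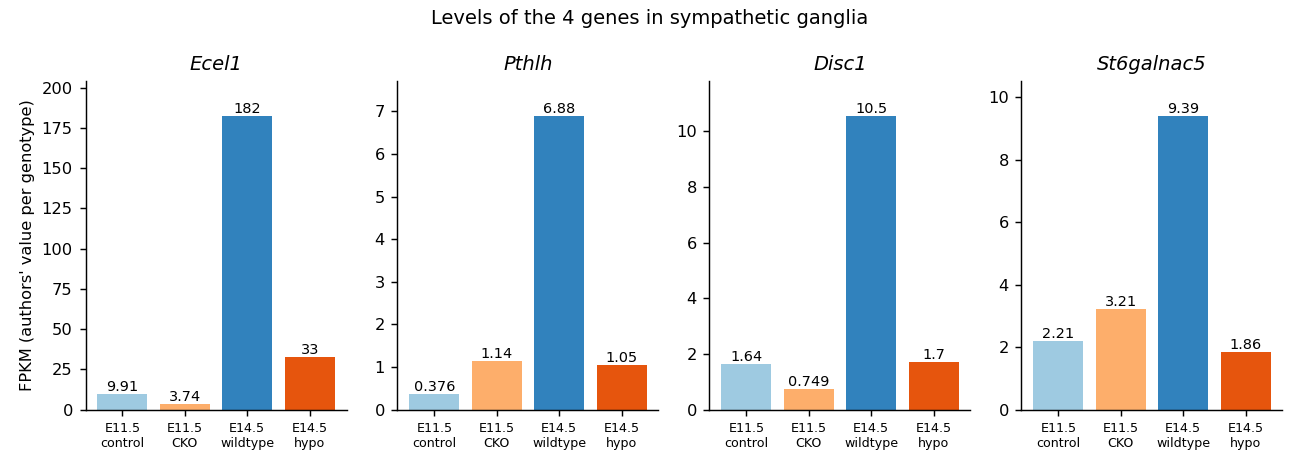
FPKM of each gene (vertical axes, linear from 0, a scale for each gene) in control and *Isl1* CKO ganglia at E11.5 and in wildtype and *Isl1* hypomorphic ganglia at E14.5, as the authors' combined value of 2 libraries, with no error bar. In each panel the wildtype bar at E14.5 is the tallest, from 6.88 FPKM for *Pthlh* to 182 FPKM for *Ecel1*.

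Within the E14.5 comparison, the values that chose the genes, all 4 were at least 1.5-fold lower in hypomorphic ganglia, as were 2.12% of all 13413 genes, while 2.89% were at least 1.5-fold higher. The hypomorphic level was 15.2% of wildtype for *Pthlh*, 16.1% for *Disc1*, 18.1% for *Ecel1* and 19.8% for *St6galnac5*. The log2 ratios, computed after adding 0.1 FPKM to both values, were -2.60, -2.56, -2.46 and -2.27 in that order. That these ratios lay close together follows from the choice of the lowest ratios. The wildtype levels, in contrast, spanned 26.5-fold. In absolute level *Ecel1* stood apart, with a difference of -149 FPKM against -5.83 FPKM for *Pthlh*, -8.83 FPKM for *Disc1* and -7.53 FPKM for *St6galnac5*. Only 2.36% of genes had a higher wildtype level than *Ecel1*, compared with 56.7% for *Disc1*, 60.2% for *St6galnac5* and 68.2% for *Pthlh*.

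Among the 10100 genes that reached 5 FPKM in at least 1 genotype at E14.5, small RNAs left out, 5 had a log2 ratio of -2 or lower, namely these 4 and *Nxph1*. *Nxph1*, which encodes a secreted ligand of neurexins, ranked between *Disc1* and *Ecel1* with 8.45 FPKM in wildtype and 1.44 FPKM in hypomorphic ganglia (17.1%), but is not among the 4 chosen symbols. Just inside the limit lay *St6galnac5* at -2.27. Outside it lay the homeobox gene *Hmx1* (366 FPKM in wildtype and 108 FPKM in hypomorphic ganglia, -1.76), the T-box gene *Tbx20* (24.6 and 7.20 FPKM, -1.76), the potassium channel subunit gene *Kcnmb2* (18.0 and 5.96 FPKM, -1.58) and the synaptotagmin gene *Syt9* (20.6 and 7.95 FPKM, -1.36). Of the first 5 genes *Ecel1* had the highest wildtype level, 182 FPKM, and the next was *Disc1* with 10.5 FPKM.

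**Figure D2:**
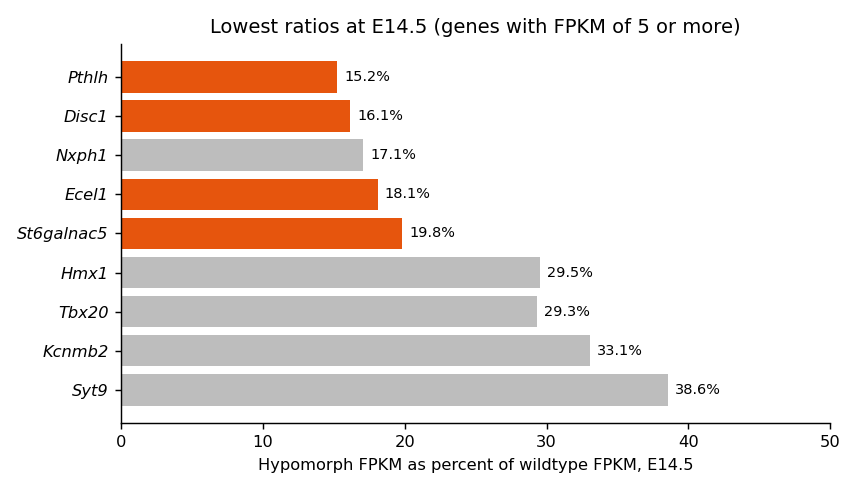
Hypomorphic FPKM as a percent of wildtype FPKM at E14.5 (horizontal axis, linear from 0) for 9 of the 10 genes with the lowest log2 ratios among genes that reached 5 FPKM, in order of that ratio, with the 4 chosen genes in orange and the others in grey. The first 5 bars lie between 15.2% and 19.8%, and the 4 others shown lie between 29.3% and 38.6%.

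The E11.5 comparison was not used to choose these genes, and there they did not share a direction. At least 1.5-fold lower in CKO ganglia were 2 of the 4, *Ecel1* and *Disc1*, against a background of 12.9% of all 13506 genes. At least 1.5-fold higher was 1 of the 4, *Pthlh*, against a background of 18.9%. With 4 genes these counts are too few to set against the background, and they are given as values. *Ecel1* was at 37.7% of control (log2 ratio -1.38), and 2.47% of genes had a lower ratio. *Disc1* was at 45.7% of control (log2 ratio -1.03), and 4.44% of genes had a lower ratio. For these 2 genes the difference had the direction of E14.5 and was smaller on the log2 scale. *Pthlh* was 3.03-fold higher in CKO ganglia (log2 ratio 1.38) and 4.47% of genes had a higher ratio, yet both of its levels were near or under 1 FPKM, and its ratio was 0.64 when 1 FPKM in place of 0.1 was added. *St6galnac5* was 1.45-fold higher (log2 ratio 0.52), short of 1.5-fold, and 78.4% of genes had a lower ratio.

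Markers of other tissues differed between control and CKO ganglia at E11.5, the stage at which *Pthlh* was higher in the mutant. *Pthlh* is a gene of skin epithelium, cartilage and placenta as well as of neurons. Of 6 skin epithelium markers 5 had a row, all 5 were higher in CKO ganglia by at least 1.5-fold, and their summed FPKM was 4.11 in control and 54.8 in CKO ganglia. Of 6 cartilage markers 4 had a row, 3 were higher, and the sums were 17.3 and 35.5 FPKM. Of 5 trophoblast and decidua markers 3 had a row, 2 were higher, and the sums were 2.24 and 58.8 FPKM. The 8 glial markers were all higher (177.6 and 395 FPKM), as were 8 of 9 erythroid markers with a row (10883 and 69041 FPKM). At least 1.5-fold higher were also 5 of 8 mesenchyme, 4 of 5 macrophage and 3 of 6 skeletal muscle markers with a row. The same held for 1 of 6 endothelial and 0 of 14 sympathetic neuron markers, beside 18.9% of all genes. Higher levels were thus not particular to the skin, cartilage and trophoblast lists. The part of any of these tissues in the level of *Pthlh* or *St6galnac5* was not tested. At E14.5 the sums of the cartilage and glial lists were nearer between the genotypes, while the skin and trophoblast lists had fewer markers with a row. Skin epithelium was at 1.93 FPKM in wildtype and 2.92 FPKM in hypomorphic ganglia over 2 markers with a row. These were *Krt5* and *Krt15*, with log2 ratios of 0.59 and 0.51 against 2.58 and 3.16 at E11.5. Trophoblast and decidua were at 1.19 and 1.72 FPKM over 1 marker, *Plac1*. Its log2 ratio was 0.50 against 0.36 at E11.5, and so was not nearer. Glia were at 372 and 418 FPKM over 8 markers. Cartilage was at 18.9 and 17.8 FPKM over 4. There *Col2a1* was lower (12.2 and 8.42 FPKM), while *Col9a1* (log2 ratio 0.66), *Sox9* (0.54) and *Lect1* (0.32) were higher. All 6 endothelial markers were higher in the mutant at both stages, with 1 past 1.5-fold at each. Their log2 ratios ran from 0.41 to 0.63 at E14.5 and from 0.18 to 0.73 at E11.5. The endothelial sums differed somewhat more at E14.5, at 68.6 and 97.4 FPKM (1.42-fold) against 55.3 and 71.0 FPKM (1.28-fold) at E11.5. The part of endothelial cells in the E14.5 ratios of the 4 genes was not tested.

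**Figure D3:**
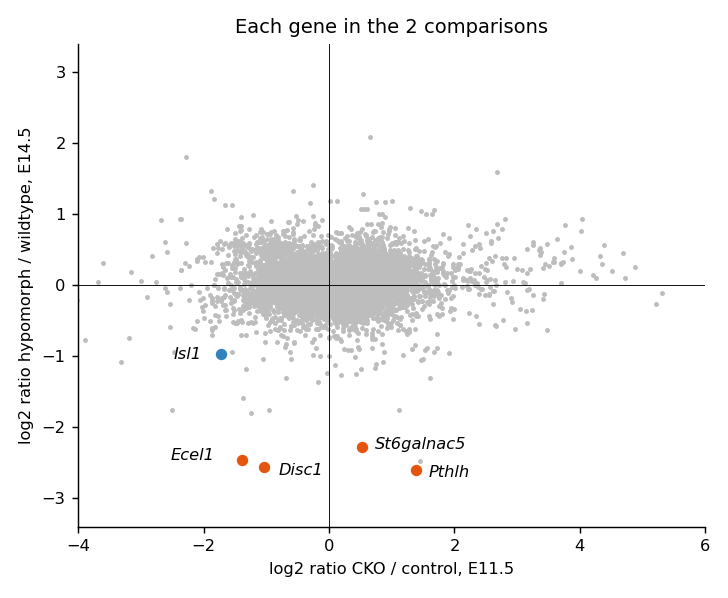
Log2 ratio of CKO to control FPKM at E11.5 (horizontal axis) against log2 ratio of hypomorphic to wildtype FPKM at E14.5 (vertical axis) for 12554 genes in grey, with *Isl1* in blue and the 4 chosen genes in orange (9 genes lie outside the axes). The 4 genes lie at the lower edge of the vertical axis, where they were chosen, and on both sides of 0 on the horizontal axis, from -1.38 for *Ecel1* to 1.38 for *Pthlh*.

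Between the control groups, the levels of all 4 genes were higher at E14.5 than at E11.5. The 2 tables were normalised separately and the control genotypes and dissections differed, so these levels are only set side by side. *Ecel1* was 18.4-fold, *Pthlh* 18.3-fold, *Disc1* 6.43-fold and *St6galnac5* 4.25-fold higher in wildtype ganglia at E14.5 than in control ganglia at E11.5. On the log2 scale with 0.1 FPKM added, these are 4.19, 3.88, 2.61 and 2.04, while the median over 12728 genes with a row in both tables was 0.24 and the quartiles were -0.21 and 0.68. A larger increase was listed for 33 genes in the case of *Ecel1*, 37 for *Pthlh*, 110 for *Disc1* and 274 for *St6galnac5*. The wildtype E14.5 value that enters this ratio also enters the E14.5 comparison by which the genes were chosen, so the 2 sets of values are not independent. Hypomorphic ganglia at E14.5 stood above control ganglia at E11.5 for *Ecel1* (3.32-fold) and *Pthlh* (2.79-fold), near them for *Disc1* (1.04-fold) and below them for *St6galnac5* (0.844-fold). *Ecel1* and *Pthlh* therefore lay between the 2 control levels in hypomorphic ganglia, whereas *Disc1* and *St6galnac5* lay at or under their E11.5 control level.

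The pathway genes of each of the 4 were counted at E14.5 against 2.12% of all genes at least 1.5-fold lower and 2.89% higher, so that a count of 0 in a list of this size is near the background. That the 4 genes have lower ratios than their lists follows from how they were chosen. Of 5 neprilysin family peptidases with a row, the family of *Ecel1*, 0 were at least 1.5-fold lower and 1 was higher, *Phex*, a phosphate-regulating peptidase, with 0.762 FPKM in wildtype and 1.22 FPKM in hypomorphic ganglia. *Ece1* and *Ece2*, which cleave precursors of endothelins and other peptides, were at 14.2 and 15.4 FPKM in wildtype and 15.9 and 14.6 FPKM in hypomorphic ganglia. The wildtype level of *Ecel1*, at 182 FPKM, was higher than the sum of these 5 relatives, 34.5 FPKM. Of 4 endothelin ligands and receptors 0 were past 1.5-fold at E14.5 in either direction, and the receptor *Ednrb*, the highest of them, was at 85.2 and 105 FPKM. At E11.5, where 12.9% of all genes were lower and 18.9% higher, 0 of 4 peptidases were lower and 2 were higher in CKO ganglia, *Mme* (5.56 and 8.44 FPKM) and *Kel* (3.77 and 41.9 FPKM), the latter a blood group antigen of erythroid cells, whose markers were higher too. *Ednrb*, a receptor of neural crest and glial cells, was at 89.98 FPKM in control and 200.3 FPKM in CKO ganglia.

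Because *Ecel1* is an injury-induced gene, other genes of axon injury and regrowth were read beside it. At E14.5, 0 of 23 with a row were at least 1.5-fold lower and 1 was higher, with a median log2 ratio of -0.11 against 0.0028 over all genes. The 1 was *Vip*, a neuropeptide of cholinergic sympathetic neurons, at 18.0 FPKM in wildtype and 45.3 FPKM in hypomorphic ganglia. *Atf3*, the injury-induced transcription factor, was listed at 1.56 and 1.13 FPKM, *Gap43*, of growth cones, at 1235 and 962 FPKM, and *Sox11* at 52.2 and 56.6 FPKM. The lowest ratio on the list was -0.55, that of the neuropeptide gene *Adcyap1*. At E11.5, 8 of 23 were lower and 6 higher in CKO ganglia (12.9% and 18.9% of all genes), with a median of 0.09 against 0.05 over all genes. *Vip* was then the other way round, at 26.9 FPKM in control against 7.18 FPKM in CKO ganglia, and *Atf3* was at 0.937 and 3.39 FPKM.

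*Pth1r*, the receptor of the peptide encoded by *Pthlh*, was listed at E14.5 at 4.70 FPKM in wildtype and 4.57 FPKM in hypomorphic ganglia (log2 ratio -0.04), so that ligand and receptor transcripts were both present in wildtype ganglia. Of 21 genes with a row among the hormone family, its receptors and the cyclic AMP pathway downstream, 0 were past 1.5-fold in either direction, with ratios from -0.29 to 0.43. *Gnas*, the stimulatory G protein subunit, was at 4337 and 4216 FPKM and *Prkar1a*, a regulatory subunit of protein kinase A, at 211 and 215 FPKM. At E11.5, 1 of 21 was lower and 4 were higher in CKO ganglia, against 12.9% and 18.9% of all genes. Among the latter was *Pth1r*, at 6.76 FPKM in control and 19.1 FPKM in CKO ganglia (log2 ratio 1.48). That is the direction of *Pthlh* at that stage, whose own levels were only 0.376 FPKM in control and 1.14 FPKM in CKO ganglia. Whether the 2 are related was not tested.

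Of the genes for binding partners of DISC1, 0 of 35 with a row were past 1.5-fold in either direction at E14.5 and the median log2 ratio was -0.07. *Ndel1* was at 33.2 FPKM in wildtype and 31.2 FPKM in hypomorphic ganglia, *Pafah1b1*, which encodes LIS1, at 126 and 121 FPKM, and *Fez1*, of axonal transport, at 56.2 and 54.6 FPKM. The lowest ratio was that of *Dpysl3*, a microtubule-associated protein of growth cones, at 714 and 499 FPKM (-0.52). At E11.5, 10 of the 35 were at least 1.5-fold lower and 0 higher in CKO ganglia, beside 12.9% and 18.9% of all genes, with a median of -0.32 against 0.05 over all genes. These included *Cit*, a kinase of cytokinesis, at 6.02 FPKM in control against 2.22 FPKM in CKO ganglia, and *Lrp8*, a reelin receptor, at 9.94 and 4.62 FPKM. A shift in this direction was not particular to the list. Of the 14 sympathetic neuron markers 6 were lower and 0 higher at that stage, with a median of -0.44.

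Of the other sialyltransferases, the enzyme class of *St6galnac5*, 0 of 16 with a row were past 1.5-fold in either direction at E14.5, where 2.12% of all genes were lower and 2.89% higher, and the median log2 ratio was 0.01. The enzymes of its own subfamily were at 2.09 FPKM in wildtype and 2.14 FPKM in hypomorphic ganglia for *St6galnac2*, 4.16 and 5.04 FPKM for *St6galnac3*, 6.31 and 5.61 FPKM for *St6galnac4*, and 8.97 and 8.74 FPKM for *St6galnac6*. In wildtype ganglia *St6galnac5*, at 9.39 FPKM, was thus close to *St6galnac6*, and in hypomorphic ganglia, at 1.86 FPKM, it was close to *St6galnac2*. *St8sia1*, which makes the ganglioside GD3, was at 24.7 and 23.5 FPKM, and *St8sia2*, which makes polysialic acid on NCAM, was at 59.6 and 48.7 FPKM. The lowest ratio was that of the second polysialic acid enzyme *St8sia4*, at 10.7 and 7.45 FPKM (-0.52). Of 14 other genes of ganglioside synthesis and breakdown and 5 of sialic acid supply, 0 and 0 were past 1.5-fold. *B4galnt1*, the enzyme that commits gangliosides to the complex series, was at 24.1 and 18.4 FPKM, and *Cmas*, which activates sialic acid, at 82.0 and 80.5 FPKM. At E11.5, 3 of 17 sialyltransferases were lower and 5 higher in CKO ganglia (12.9% and 18.9% of all genes), among the former *St8sia1* at 18.9 FPKM in control and 9.62 FPKM in CKO ganglia and *St8sia2* at 33.6 and 19.4 FPKM.

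**Figure D4:**
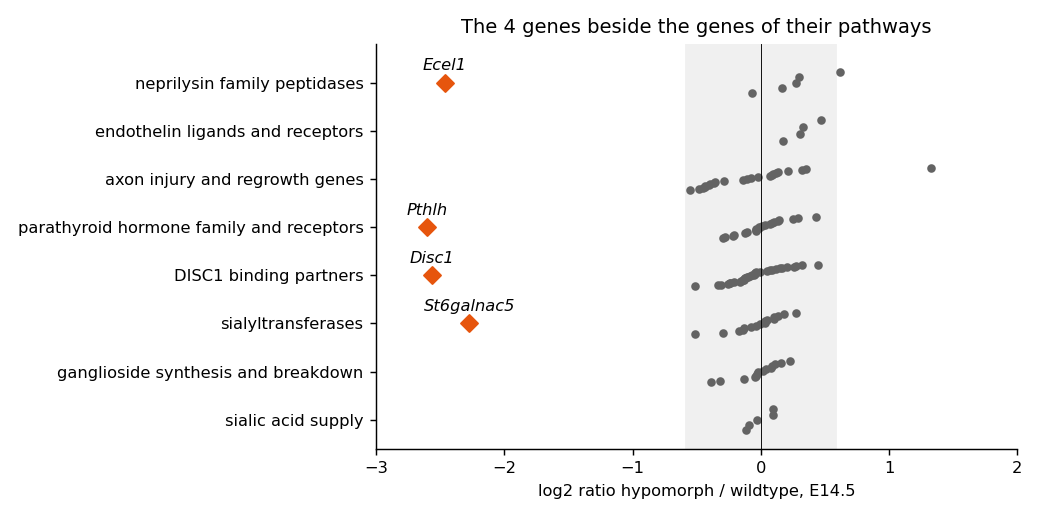
Log2 ratio of hypomorphic to wildtype FPKM at E14.5 (horizontal axis) for the genes with a row in 8 lists (grey points, 1 per gene), with the chosen gene of a list as an orange diamond and the range within 1.5-fold shaded. The points outside the shading are *Phex* at 0.62 and *Vip* at 1.32, and the 4 diamonds lie between -2.60 and -2.27.

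Of the 2 nearest genes with a row on each side of the 4 in the genome, only a neighbour of *Disc1* was at least 1.5-fold lower at E14.5. Over all genes 2.12% were lower by that much, and 1 gene among so few neighbours is too little to set against that share. *Sipa1l2*, a gene of a Rap GTPase-activating protein 156 kb from *Disc1*, was at 25.2 FPKM in wildtype and 16.8 FPKM in hypomorphic ganglia (-0.59), just past 1.5-fold. *Tsnax*, 20.0 kb on the other side of *Disc1*, was at 61.6 and 59.9 FPKM. *Pigk*, which overlaps *St6galnac5*, was at 12.6 and 12.9 FPKM and *St6galnac3*, 223 kb from *St6galnac5*, was slightly higher in hypomorphic ganglia. *Chrnd*, 34.1 kb from *Ecel1*, was at 1.22 and 1.34 FPKM, and *Dis3l2*, 97.6 kb on the other side, at 20.4 and 16.8 FPKM. *Mrps35*, 181 kb from *Pthlh*, was at 22.6 and 21.8 FPKM.

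Over the 4 group levels on the log2 scale, each gene centred on its own mean, the genes most like each member were found by Euclidean distance among 12706 other genes. *Disc1* was nearest to *Kcnmb2* (distance 0.817), *Tbx20* (0.846), *Tox2* (1.02), *Ncald* (1.26) and *B3gat1* (1.27), all listed at higher levels than *Disc1* in each group. Like *Disc1*, these genes were lower in the mutant at both stages, but the distance was taken over these same values. Their shared direction therefore follows largely from how they were picked and is not a separate result. *St6galnac5* was nearest to *Thsd7b* (0.589), followed by *Mir341* (0.696), *Syt9* (0.875), *Snord65* (0.935) and *Snurf* (0.948). *Ecel1* and *Pthlh* had no neighbour closer than 1.19 and 1.09. For *Ecel1* these were *Mir6516*, *Stk32b*, *Ryr2*, *Mir331* and *Pisd-ps3*, and for *Pthlh* they were *Mir8098*, *Cox8b*, *Snord2*, *6030419C18Rik* and *Thsd7b*. Between the members, *Pthlh* and *St6galnac5* were closest (1.40) and *Ecel1* and *St6galnac5* farthest apart (3.29). These distances rest on 4 combined values per gene, of which the E14.5 values chose the members, and those to microRNA and small nucleolar RNA genes rest on short transcripts for which FPKM is uncertain.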

How the data were processed

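Sympathetic ganglia were profiled by RNA-seq in 8 libraries, 2 per genotype and stage. The authors prepared polyA RNA and cDNA libraries, sequenced paired ends, aligned reads with TopHat to mm9 and ran cuffdiff, while the submitters' processing notes name TopHat 1.3.1, Cuffdiff 1.3.0 and a fly build. The FPKM values were deposited by the authors as 1 value per gene and genotype, in which both libraries are combined, for genes that reached 1 FPKM in at least 1 genotype. The tables also hold the authors' own fold changes and p-values, which were not used. Depth is unknown, so no interval or test was computed.

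Log2 ratios, mutant over control, were computed here with 0.1 FPKM added, and a difference of 1.5-fold or more was counted. The alternatives were 1 or 0.01 FPKM added, rescaling without erythroid markers, centring on the median, no filter, an FPKM of 5 or more, and 2-fold. The named genes were the 4 members, *Isl1*, the 10 lowest ratios at E14.5 among genes reaching 5 FPKM (small RNA symbols starting with *Mir*, *Snor* or *Rn* left out), the 5 most similar genes per member, 2 genome neighbours on each side and genes of the lists. Of the 10, 1 gene is not reported here. The members and lists were chosen with earlier results of these data known. Gene models came from the mm9 annotation (89.2% of E14.5 symbols matched) and promoters from RefSeq (GRCm38.p6). The steps were tested on simulated data and run in Python 3.11.15 with scipy 1.17.1, matplotlib 3.10.9, pandas 2.3.3 and numpy 2.4.6.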

Additional observations from a re-analysis of the deposited data

How the results depend on the processing

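Of 48 log2 values of the 4 genes recomputed under the alternatives, 45 moved by less than 0.58 and 0 changed sign, and of 28 counts of genes, 17 stayed within 1.5 times. The E14.5 log2 ratios ranged over the alternatives from -2.70 to -1.94 for *Pthlh*, -2.62 to -2.09 for *Disc1*, -2.47 to -2.43 for *Ecel1* and -2.33 to -1.86 for *St6galnac5*. At E11.5 they ranged from -1.61 to -1.20 for *Ecel1*, -1.24 to -0.59 for *Disc1*, 0.64 to 1.58 for *Pthlh* and 0.29 to 0.54 for *St6galnac5*. With 1 FPKM added, *Pthlh* moved to -1.94 at E14.5, to 0.64 at E11.5 and to 2.52 for wildtype at E14.5 over control at E11.5, since its levels are low. At E14.5, the 284 lower and 387 higher genes became 188 and 217 with 1 FPKM added, 173 and 225 at an FPKM of 5 or more, and 105 and 131 at 2-fold. At E11.5, the 1746 lower and 2552 higher genes became 652 and 1137 at 2-fold, and 1556 were higher at an FPKM of 5 or more. The FPKM sum over all genes at E11.5 was 476289 in control and 617263 in CKO ganglia. Rescaling without erythroid markers made the sum outside those markers equal between genotypes, so its shift is not that of erythroid RNA alone. At E11.5 this rescaling gave 3036 lower and 1560 higher genes and moved the median of all genes from 0.05 to -0.18. The share of higher among counted genes went from 59.4% to 33.9%. At E14.5 that share went from 57.7% to 63.2%. No paired analysis was possible because the tables give 1 combined value per genotype, and for the same reason no library could be left out. Differences among genes near 1 FPKM, such as *Pthlh* at E11.5, are limited by a depth that is unknown.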

Other observations

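Steeper ratios at E14.5 than that of *Pthlh* were listed for 5 genes whose FPKM was under 5 in both genotypes, small RNAs left out. *Rasgrp1*, an activator of Ras, was at 4.197 FPKM in wildtype and 0.386 FPKM in hypomorphic ganglia (log2 ratio -3.14), and *Tspan2os* at 4.08 and 0.415 FPKM (-3.02). The ribonuclease gene *Rnaset2a* was at 1.39 and 0.00420 FPKM (-3.84). *Hba-a1*, an alpha globin gene, was at 3.04 and 0.0565 FPKM (-4.33), while its near-identical copy *Hba-a2* was the other way round at 0.0809 and 3.605 FPKM (4.36), and the values of such copies are uncertain. *Gm12191* was at 3.20 and 0.000615 FPKM (-5.04).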
